A study of Danio rerio with 20 samples.

Results

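The comparison of zebrafish ventricular apexes at 14 days post cryoinjury (dpci) with apexes at 7 dpci rests on 8 of the 20 RNA sequencing libraries of the series, 4 per time point. Libraries were assigned to the comparison by their labelled time point. All fish carried the label WT, and the hearts came from adult males and females. In both groups the apex had been cryoinjured, meaning that a frozen probe killed the muscle at the tip of the ventricle, and each library held 3 to 4 apexes pooled in 1 tube. The other 12 libraries were 4 of non-injured apexes, 4 at 1.5 dpci and 4 at 3 dpci, and the whole series asked which transcripts change while the injured heart regenerates. A pool of dissected apexes mixes wound, border and spared muscle, so in these bulk samples fewer cells of a type and less RNA per cell cannot be told apart. The p-values below rest on the spread between pooled tubes, 4 per group. In the main model all 20 libraries of the 5 groups set that spread, not only the 8 compared. The sources used here do not say whether tubes shared a clutch or a day.

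The zebrafish heart is known for replacing lost muscle. Cryoinjury leaves a dead core that fills with clotted plasma and inflammatory cells, then with fibroblasts and extracellular matrix, while the endocardium and epicardium grow over the wound. Later the matrix is cleared again and cardiomyocytes at the border divide and extend across it.

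The deposited table gives, for 66128 loci, the normalised read count in each library, which is the number of reads on the locus divided by 1 size factor per library and not by locus length. Levels of expression are therefore compared between libraries, and an order of loci by reads says only how well each was covered. Where the level of a locus is given in reads below, it is the normalised read count. A locus is a transcribed stretch assembled from the reads and carries a number with the prefix XLOC. The column of gene names is sorted in another order than the values, with positions that form 7854 chromosome blocks as deposited and 26 once the text order is undone. No gene is named here for that reason, and neither pathways nor heart markers could be checked, so the labelled tissue stands untested.

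Depth was even across the comparison. In 7 of the 8 libraries nearly all values are whole multiples of 1 step, and dividing by it gave 23541028 to 27949675 reads. For 7 dpci replicate 1 the same held, with 26004089 reads, but its step was too near 1 for low values to tell its reads from its values. Among its values of 100 to 2000, 100% were whole multiples of the step, against 11.02% for a step of 1. On the first principal component of all 20 libraries, which held 31.5% of the variance, the 7 and 14 dpci libraries lay on the same side as non-injured replicates 1 and 2, with scores of 44.8 to 166. Non-injured replicates 3 and 4 and all libraries at 1.5 and 3 dpci lay on the other side. The contrast of 14 with 7 dpci does not cross this divide, whereas levels at 1.5 and 3 dpci do, and there the time after injury and the side cannot be told apart. Contrasts with non-injured apexes, given for many loci below, cross it in part, since replicates 3 and 4 of that group lie on the other side. Within the 8 libraries, 7 dpci replicate 4 and 14 dpci replicate 1 were the least like their groups, with mean correlations of 0.9353 and 0.9311 to the other 3.

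As whole libraries the 2 time points were close. The median correlation of log2 levels was 0.9402 over the 16 pairs that joined a 7 dpci with a 14 dpci library, against 0.9411 over the 6 pairs within 7 dpci and 0.9539 over the 6 pairs within 14 dpci. These correlations run across loci with a mean of at least 10, and the pairs share libraries. At 7 dpci 52762, 52523, 52209 and 52560.0 loci had a value above 0, and at 14 dpci 50006, 51539, 52920.0 and 51588 did. The groups overlap, and the mean difference of -1000.2 loci gave p = 0.143 in an exact two-sided permutation test. First component scores were 118 to 130.1 at 7 dpci and 151 to 166 at 14 dpci, which do not overlap (p = 0.0286, exact permutation test, the smallest that 4 against 4 allows). None of the 9 library measures compared passed after Benjamini-Hochberg adjustment, and the first component reached 0.257. Among the 8 libraries alone the second component, with 21.3% of the variance, kept the time points apart, at -145.5 to -21.3 for 7 dpci and 33.4 to 99.3 for 14 dpci, while the first held 22.2%.

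Of 62594 loci tested, 253 differed between the time points at an adjusted p below 0.05 in limma, which is 0.404%. At 14 dpci 66 were higher, 0.105% of the loci tested, and 187 were lower, 0.299%. The median log2 difference was 1.57 for the higher loci, between 0.60 and 4.91, and -1.67 for the lower loci, between -5.09 and -0.55. With the 14 called loci that were at 0 in a whole group set to the bound that 3 reads per library allow, these medians were 1.49 and -1.59. At XLOC_010648, XLOC_027551, XLOC_047171, XLOC_055461 and XLOC_057360 that bound was under 1-fold, from 0.327 to 0.968. This floor thus shows no change at these loci. A fold of at least 2 was met by 202 of the 253 and a fold of at least 4 by 90. Before adjustment 7020 loci had p below 0.05, or 11.2%, with 2995 higher and 4025 lower.

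**Figure D1:**
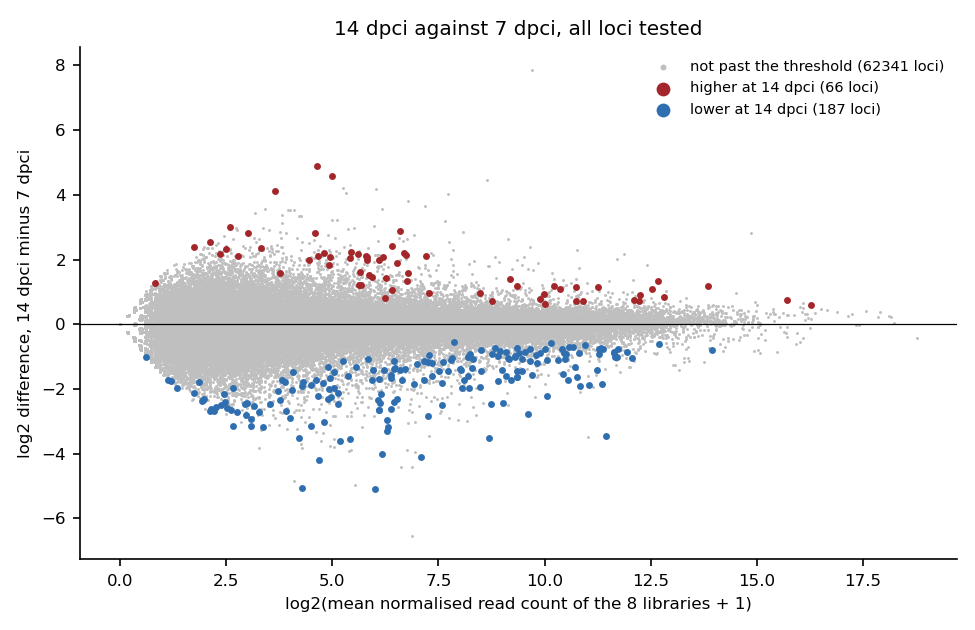
Log2 difference between 14 and 7 dpci for each of 62594 loci (vertical axis) against the log2 of its mean normalised read count over the 8 libraries plus 1 (horizontal axis). Red points are the 66 loci past the threshold and higher at 14 dpci, blue points the 187 that were lower, and grey points did not pass; blue points outnumber red ones at nearly every level.

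Separation of the libraries was seen at many more loci than passed the test. In 243 of the 253 called loci the 4 values at 14 dpci did not overlap the 4 at 7 dpci. The same lack of overlap was found at 3555 of all loci tested, or 5.68%, with 1753 higher and 1802 lower at 14 dpci, and 3312 of these were not called. Rises and falls were thus nearly even among the non-overlapping loci as a whole. By label alone, untied values of 4 against 4 separate at a share of 0.0286, so the 3555 are not a count of changed loci.

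Loci with more reads were called more often. Among loci with a mean of at least 1000 over the 8 libraries 1.09% were called, 17 higher and 35 lower, and between 100 and 1000 it was 0.657%. Between 10 and 100 it was 0.552%, and below a mean of 10 it was 38 of 30487 loci. The median standard error of the log2 difference fell over these classes from 0.58 at a mean of 1 to 10 to 0.16 at 1000 and over.

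The number of calls differed with the libraries in the model, and why was not tested. A model of the 8 libraries alone called 23 of 59969 loci, 0.0384%, with 3 higher and 20 lower, and 20 of these were among the 253. In that model 6241 loci, or 10.4%, had an unadjusted p below 0.05. When only the 10 libraries on the same side of the first component entered, 16 loci passed, 1 higher and 15 lower, and 13 of them were among the 253. Leaving out 14 dpci replicate 2 lowered the count from 253 to 79, and leaving out 7 dpci replicate 2 lowered it to 123. The remaining 6 single omissions gave 184 to 321. In all 8 fits that left out 1 library 65 loci were called, 16 higher and 49 lower, and 32 of these had a mean of at least 100.

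**Figure D2:**
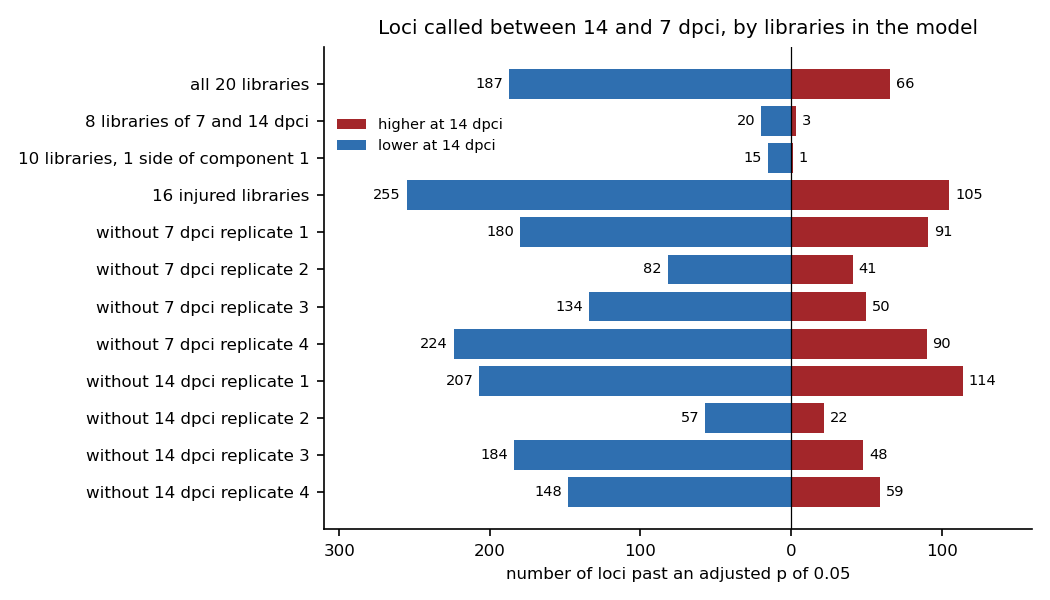
Number of loci past an adjusted p of 0.05 in limma (horizontal axis), lower at 14 dpci to the left and higher to the right, for models with different libraries (rows). Falls outnumber rises in all 12 models, and the count is 253 in the model of 20 libraries, 23 in that of 8 and 16 in that of 10.

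Among called loci with a mean of at least 100 and no overlap, the fall with the largest log2 difference was that of XLOC_019783. At 7 dpci its normalised read count was 499, 699, 714 and 1103, and by 14 dpci it stood at 40.5, 36.5, 78.1 and 129.9. Each 14 dpci library thus lay far under each 7 dpci library, and the mean was 10.6-fold lower (754 ± 253 against 71.2 ± 43.4, SD, n = 4). On the log2 scale the difference was -3.52 ± 0.45 (SE, adjusted p = 0.00219), and it passed in each of the 8 single omissions. Non-injured apexes held 18.6 ± 12.8 reads (SD, n = 4), so the locus was still higher at 14 dpci than without injury (log2 difference 1.97, adjusted p = 0.00828). Means of 1349.9 at 1.5 dpci and 1145 at 3 dpci had been higher than both.

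XLOC_006361 followed a similar course and came back further. The 7 dpci libraries held 342, 465, 334 and 172 reads and those of 14 dpci 71.5, 61.8, 59.3 and 31.7, without overlap. The log2 difference was -2.50 ± 0.28 (SE, adjusted p = 0.000383). The 14 dpci level of 56.1 ± 17.1 (SD, n = 4) lay beside 50.5 ± 10.6 in non-injured apexes, with a log2 difference of 0.11 and an adjusted p of 0.848, while at 7 dpci it was 2.61 higher than without injury (adjusted p = 7.62e-06). Early levels were higher again, with a mean of 1126 at 1.5 dpci and 2523 at 3 dpci.

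Other loci were below the non-injured level at 14 dpci and had not differed from it past the threshold at 7 dpci. XLOC_041205 stood at 797, 592, 941 and 556 at 7 dpci, and at 69.1, 175, 147 and 140.1 at 14 dpci. All 4 libraries at 14 dpci were below the lowest non-injured value of 456, and the log2 difference from non-injured apexes was -3.03 (adjusted p = 0.000166). Its change from 7 to 14 dpci was -2.48 ± 0.40 (SE, adjusted p = 0.0093). XLOC_012454 had 872, 1112, 718 and 781 at 7 dpci and 129, 97.3, 157 and 309 at 14 dpci, a log2 difference of -2.44 ± 0.42 (SE, adjusted p = 0.015). Neither locus differed past the threshold between 7 dpci and non-injured apexes, with adjusted p of 0.399 and 0.563. Non-injured apexes held 1198 ± 700 and 1290 ± 679 (SD, n = 4), against 7 dpci means of 721 and 871. An equal level at 7 dpci was thus not shown. Without 14 dpci replicate 2 XLOC_012454 lost its call (adjusted p = 0.0593).

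In a group of 3 such loci the 7 dpci libraries were themselves far apart. XLOC_030323 held 1469, 2056, 4703 and 12239 at 7 dpci and 129, 208, 421 and 1063 at 14 dpci. Its mean was 11.2-fold lower and the groups did not overlap, but the 7 dpci libraries spread nearly as widely as the groups were apart. XLOC_043532 had 385, 456, 1946 and 2841 at 7 dpci against 215, 77, 139 and 181, and XLOC_025610 had 778, 1278, 2106 and 2871 against 392, 151, 373 and 601. Non-injured apexes held 4013 ± 1817, 1408 ± 544 and 2244 ± 440 at these loci, in the same order (SD, n = 4). In each of the 3 loci 7 dpci replicates 3 and 4 were the highest. Their log2 differences were -3.45 ± 0.62, -2.79 ± 0.52 and -2.20 ± 0.39 (SE), with adjusted p of 0.0207, 0.023 and 0.0158, and in the model of the 8 libraries alone the adjusted p were 0.272, 0.262 and 0.215. XLOC_030323 lost its call without 7 dpci replicate 3 or 14 dpci replicate 2 (adjusted p of up to 0.0823), and XLOC_043532 without those or 14 dpci replicate 3 (up to 0.0939).

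The 3 remaining falls of this set were XLOC_036232, XLOC_039099 and XLOC_013292, with log2 differences of -2.83, -1.98 and -1.96 and adjusted p of 0.0162, 0.017 and 0.00463. At 14 dpci XLOC_036232 ranged from 14.3 to 118 and XLOC_039099 from 44.1 to 139, each with replicate 1 apart from the other 3. Without 7 dpci replicate 2 neither passed, and adjusted p reached 0.0666 and 0.0624 over the single omissions. XLOC_013292 had 73.9 to 151 at 14 dpci and 283 to 886 at 7 dpci, where replicate 4 was apart from the others. It passed in each single omission.

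**Figure D3:**
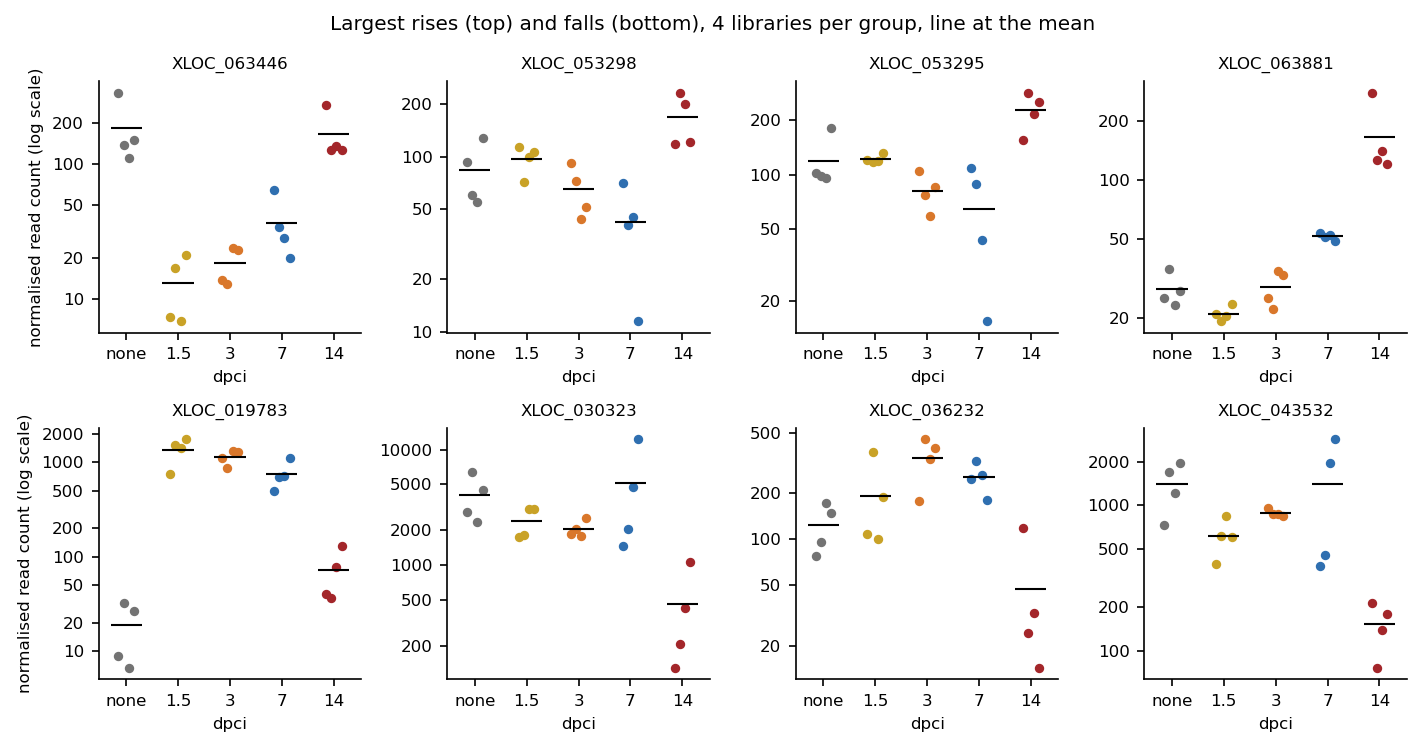
Normalised read count on a log scale (vertical axes) of the 4 largest rises (top) and 4 largest falls (bottom), by log2 difference, among called loci with a mean of at least 100 and no overlap, in non-injured apexes and at 1.5, 3, 7 and 14 dpci (horizontal axes). Points are the 4 libraries of a group and lines their mean; XLOC_019783 drops from 754 to 71.2 between 7 and 14 dpci, and XLOC_063446 climbs from 36.6 to 166.

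Among called loci with a mean of at least 100 and no overlap, rises were fewer, 28 against 95 falls. The largest rises of this set were smaller than its largest falls. XLOC_063446 had 64.1, 34.0, 28.1 and 20.2 reads at 7 dpci and 275, 127, 136 and 127 at 14 dpci. The groups did not overlap, 14 dpci replicate 1 was the highest, and the log2 difference was 2.20 ± 0.42 (SE, adjusted p = 0.0183). Non-injured apexes held 184 ± 103 (SD, n = 4), against which 7 dpci was lower (log2 difference -2.28, adjusted p = 0.0014) and 14 dpci differed by -0.09 (adjusted p = 0.937). At 3 dpci the mean had been 18.4, and at 1.5 dpci it was lower still. The call was lost without 7 dpci replicate 2 or 3 or without 14 dpci replicate 2, with adjusted p of up to 0.0543.

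XLOC_063881 rose beyond any other group. Its values were tight at 7 dpci, with 54.1, 51.5, 53.0 and 49.0, and reached 277, 127, 140.3 and 121 at 14 dpci. The difference was 1.57 ± 0.25 on the log2 scale (SE, adjusted p = 0.0066), and it passed in each of the 8 single omissions. In non-injured apexes the locus stood at 27.9 ± 5.39 (SD, n = 4), and it was higher than that at both 7 dpci (log2 difference 0.89, adjusted p = 0.0254) and 14 dpci (2.46, adjusted p = 9.56e-06).

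XLOC_057804 rose to about the non-injured level. It held 919, 741, 879 and 459 reads at 7 dpci and 1643, 2064, 1542 and 1354 at 14 dpci, a log2 difference of 1.17 ± 0.21 (SE, adjusted p = 0.0158). Non-injured apexes had 1579 ± 397 (SD, n = 4), and 7 dpci was lower than these (log2 difference -1.08, adjusted p = 0.00258). Without 14 dpci replicate 2 its adjusted p was 0.0673. XLOC_022624 had 388, 329, 471 and 342 at 7 dpci against 1521, 815, 744 and 573, with a log2 difference of 1.17 ± 0.24 (SE, adjusted p = 0.0319), and lost its call in 5 of the 8 single omissions (adjusted p of up to 0.104).

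Of the other rises in this set, XLOC_017458 and XLOC_059676 were higher at 14 dpci than in non-injured apexes as well, by 1.55 and 1.10 on the log2 scale (adjusted p = 0.000828 and 0.0142). They lost their calls in 3 and 5 of the 8 single omissions, with adjusted p of up to 0.0971 and 0.135. XLOC_028540 had 14 dpci values of 792, 1685, 624 and 401 against 212 to 353 at 7 dpci, without overlap. Its log2 difference of 1.38 was 1.002 without 14 dpci replicate 2. The adjusted p was 0.0467, and the call was lost in 7 of the 8 single omissions, with adjusted p of up to 0.131. XLOC_053298 and XLOC_053295 belong to a run of neighbours described below.

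Among the 5 called loci with the most reads, 4 rose and 1 fell. XLOC_031629 had 64237, 59658, 80623 and 49934 reads at 7 dpci and 86957, 110326, 93425 and 91000.0 at 14 dpci, a log2 difference of 0.60 ± 0.12 (SE, adjusted p = 0.0263). XLOC_006591 had 47029.9, 37664, 43192 and 31579.5 at 7 dpci and 62508, 76024, 67229 and 62340.2 at 14 dpci, a log2 difference of 0.76 ± 0.16 (SE, adjusted p = 0.0342). Both were above the 7 dpci libraries in all 4 libraries at 14 dpci, but under quantile normalization their adjusted p were 0.325 and 0.247, and leaving out 1 library cost the calls in 4 and 6 of the 8 fits.

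XLOC_023603 became 2.31-fold higher, from 6977, 8509.8, 9012 and 11148 at 7 dpci to 30340.3, 19768, 14502 and 17809.9 at 14 dpci (log2 difference 1.17 ± 0.21, SE, adjusted p = 0.0155). XLOC_031528 went from 5782, 5112, 5044 and 4539 to 9739.5, 11187, 8345 and 8046, with little spread in either group (0.86 ± 0.14, SE, adjusted p = 0.00906). The falling locus was XLOC_037039, with 15718, 29068, 17413 and 18059 at 7 dpci and 12879.5, 9988, 11426 and 10824 at 14 dpci (-0.79 ± 0.14, SE, adjusted p = 0.0155). Its 14 dpci mean of 11279 ± 1219 (SD, n = 4) lay near the 10057 ± 1060.1 of non-injured apexes, after means of 31874 at 1.5 dpci and 36634 at 3 dpci. Without 14 dpci replicate 2 the adjusted p of XLOC_023603 was 0.0519 and that of XLOC_037039 was 0.0639, while XLOC_031528 passed in each single omission.

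The 10 loci with the most reads of all were not among the called ones. The closest was XLOC_013759, which took 1.97% of the values at 7 dpci and 1.44% at 14 dpci, with a log2 difference of -0.44 ± 0.13 (SE, adjusted p = 0.137). For the other 9 the difference lay between -0.03 and 0.41.

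All 10 loci named for passing both in the model of 20 libraries and, with the smallest adjusted p, in the model of 8 libraries were lower at 14 dpci. The next in that order, XLOC_044409, rose, and its adjusted p of 0.0304 in the model of 8 printed the same as that of the tenth. It had normalised read counts of 0, 0, 0 and 0.961 at 7 dpci and 16.7, 9.12, 21.7 and 44.0 at 14 dpci, without overlap. It passed in the limma model of 20 (adjusted p = 0.00524) and in each single omission. XLOC_005189 held 587, 716, 585 and 381 reads at 7 dpci and 205, 139, 151 and 102 at 14 dpci. Its log2 difference was -1.93 ± 0.20 (SE, adjusted p = 0.000325), and 149 ± 42.5 at 14 dpci lay beside 149 ± 29.8 in non-injured apexes (SD, n = 4). XLOC_004392 went from 3117, 3791, 2195 and 2463 to 542, 675, 850.0 and 1039 (-1.91 ± 0.28, SE, adjusted p = 0.00512), with 638 ± 258 in non-injured apexes. XLOC_007436 went from 166, 111, 109 and 158 to 8.34, 25.3, 27.7 and 11.3 (-2.97 ± 0.35, SE, adjusted p = 0.000517), and stayed above the 5.41 ± 1.66 of non-injured apexes (log2 difference 1.46, adjusted p = 0.0101).

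Besides XLOC_041205 and XLOC_012454, described above, a further pair of loci in this set were lower than non-injured apexes past the threshold at 14 dpci but not at 7 dpci. XLOC_007575 had 432, 474, 487 and 362 at 7 dpci and 141, 126, 202 and 121 at 14 dpci, whereas non-injured apexes held 726 ± 229.7 (SD, n = 4). Its 7 dpci values already lay under all non-injured values, which ranged from 493 to 1013 (limma log2 difference -0.68, adjusted p = 0.126). XLOC_031568 had 79.1, 185, 122 and 181 at 7 dpci and 9.54, 9.12, 14.8 and 29.7 at 14 dpci, while non-injured apexes ranged from 25.3 to 295. Its highest 14 dpci value thus lay within the non-injured range. Their log2 differences between 14 and 7 dpci were -1.59 ± 0.29 and -3.16 ± 0.56 (SE), with adjusted p of 0.0155 and 0.0159. Against non-injured apexes they stood at -2.27 and -2.93 at 14 dpci (adjusted p = 6.99e-05 and 0.00286). Without 14 dpci replicate 2 both lost their calls, with adjusted p of up to 0.0595 and 0.0663.

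XLOC_054664 was detected in all 4 libraries at 7 dpci, with 49.1, 14.2, 24.9 and 60.5 reads, and was listed at 0 in each library at 14 dpci. With a floor of 3 reads per library it was at least 11.8-fold lower at 14 dpci. Its fitted difference depends on the pseudocount and ranged from -8.33 to -2.92 on the log2 scale over the alternatives tried. The locus lost the call in each single omission, with adjusted p of up to 0.111. XLOC_054664 also varied within other groups, with 11.4, 41.5, 0 and 3.59 reads in the non-injured libraries. At 3 dpci it had 0, 49.96, 1.77 and 0 reads, and at 1.5 dpci 1.68 or fewer. Values of 0 were thus not confined to 14 dpci. XLOC_054662, close to it in the numbering and described below, varied similarly, with 134, 376, 2.22 and 3.59 reads in non-injured apexes. At both loci the higher non-injured values were those of replicates 1 and 2, on the same side of the first component as 7 and 14 dpci. In the other direction XLOC_045235 was at 0 in each library at 7 dpci and had 100.1, 7.09, 12.8 and 70.6 reads at 14 dpci, at least 15.4-fold higher by the same floor. A value of 10 or more in all 4 libraries at 14 dpci with 0 in all at 7 dpci occurred at 0 loci. The reverse was found at 2 loci.

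Some called loci sat beside each other in the numbering of loci, and no like share was taken for loci that were not called. Within 5 numbers of another called locus lay 60 of the 253, in 50 pairs of which 49 moved in the same direction. They formed 23 runs, the longest of 6 loci, so that the 253 loci amount to 216 places when each run counts once. Whether such neighbours are pieces of 1 transcript or near copies that share reads was not tested, and the 253 are not a count of genes.

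The longest runs both rose. The 6 called loci from XLOC_033126 to XLOC_033135 summed to 100.2, 63.6, 189 and 105 reads at 7 dpci and to 461, 601, 459.6 and 357 at 14 dpci. Every locus of the run was without overlap, with log2 differences of 2 to 2.36 and adjusted p of 0.00524 to 0.0183. The 6 called loci from XLOC_053290 to XLOC_053299 summed to 337, 232, 159 and 47.1 reads at 7 dpci and to 486, 942, 723 and 644 at 14 dpci. Their log2 differences were 1.91 to 2.20, with adjusted p of 0.0185 to 0.0484, and 7 dpci replicate 4 was the lowest. Its loci XLOC_053298 and XLOC_053295 lost their calls in 2 and 3 of the 8 single omissions, with adjusted p of up to 0.0858. Sums in non-injured apexes were 248 ± 52.6 for the first run and 370.1 ± 117 for the second (SD, n = 4), between those of the 2 time points.

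Shorter runs moved both ways. The 4 loci from XLOC_017458 to XLOC_017467 rose by 1.22 to 1.58 on the log2 scale, to a sum of 328 ± 63.4 at 14 dpci from 128 ± 36.1 at 7 dpci (SD, n = 4), with 108 ± 23.0 in non-injured apexes. The 3 loci from XLOC_043358 to XLOC_043360 rose from a sum of 38.9 ± 11.4 to 222 ± 99.1 (SD, n = 4). In the other direction the 3 loci from XLOC_024045 to XLOC_024048 went from 105 ± 30.1 to 22.1 ± 7.86 (SD, n = 4). Their sum at 1.5 dpci had been 547 ± 144 and in non-injured apexes it was 127 ± 59.7. The 3 loci from XLOC_035757 to XLOC_035761 had a sum of 1472 to 3872 at 7 dpci and 771 to 1297 at 14 dpci, below the 2433 ± 476 of non-injured apexes. Those from XLOC_035923 to XLOC_035929 came down from 42.2 ± 20.6 to 7.01 ± 2.62, beside 5.07 ± 1.24 without injury (SD, n = 4).

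**Figure D4:**
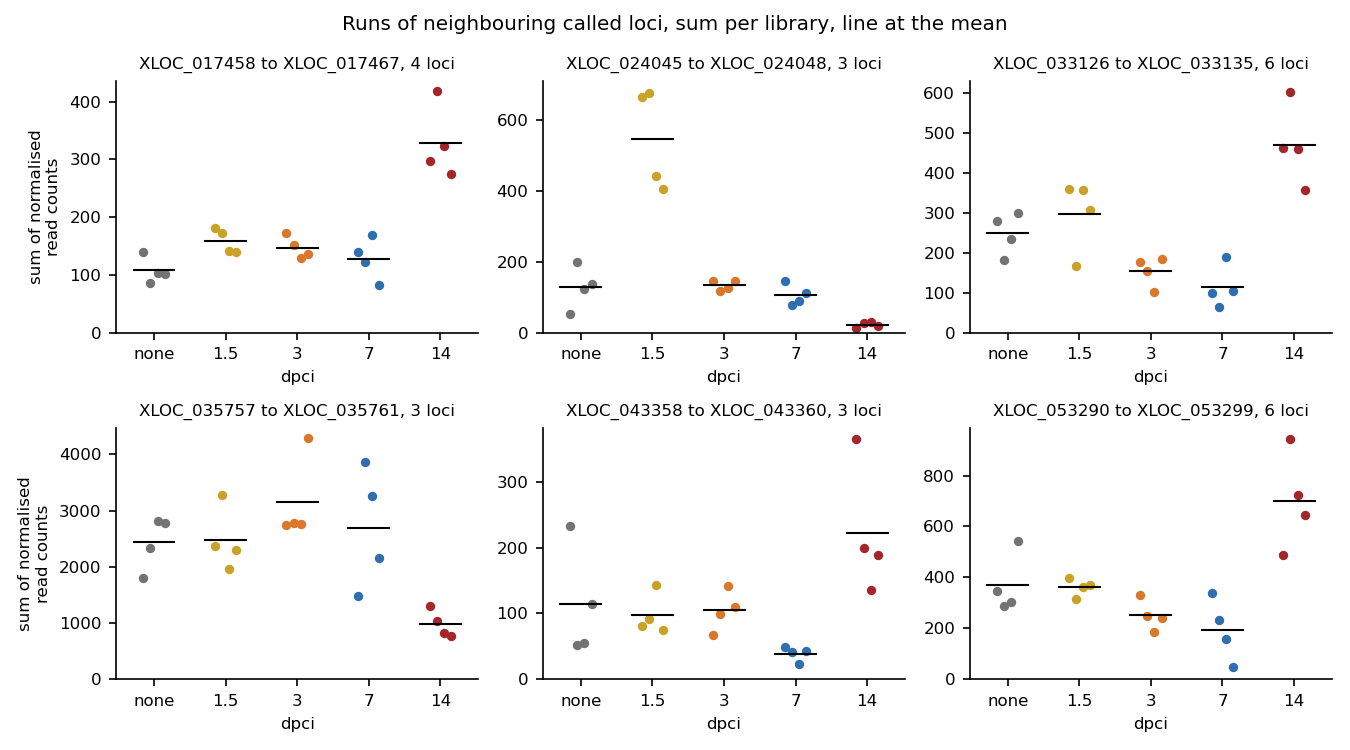
Sum of the normalised read counts of the called loci in each of 6 runs of neighbouring loci (vertical axes), per library, in non-injured apexes and at 1.5, 3, 7 and 14 dpci (horizontal axes). Points are libraries and lines group means; in the 6-locus run that starts at XLOC_033126 the 14 dpci sums lie between 357 and 601, above all 4 sums at 7 dpci.

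Whether the change from 7 to 14 dpci led back to the non-injured level was answered by counting. The mean log2 level at 14 dpci was nearer to that of non-injured apexes than the level at 7 dpci for 146 of the 253 called loci, or 57.7%, against 47.8% of all loci tested. Of the 62594 tested, 59969 were above 0 in 1 or more of the 8 libraries. The rest had equal means and could not count as nearer, which lowers the shares of all loci tested. No called locus was of this kind. Among loci with a mean of at least 100 the shares were closer, at 55.1% of the called loci and 53.5% of all. At any mean it was 113 of 187 lower loci, or 60.4%, and 33 of 66 higher loci. With a mean of at least 100 it was 55 of 99 lower loci, or 55.6%, and 15 of 28 higher loci, or 53.6%. When the non-injured level was taken from replicates 1 and 2 alone, which lie on the same side of the first component as 7 and 14 dpci, the share over called loci was 59.3% (49.0% of all loci tested). From replicates 3 and 4 alone it was 55.3% (47.5%). These counts share the 7 and 14 dpci libraries with the calls themselves, and no test was made of them.

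The mean at 14 dpci often lay on the far side of the non-injured mean, by any amount. At 141 of the 253 called loci the 14 dpci mean had gone past the non-injured mean, at 67 it lay between the non-injured and the 7 dpci mean, and at 45 it had moved away. Of the 141 only 50 differed from non-injured apexes at 14 dpci in limma (adjusted p below 0.05), and 91 did not pass. Over all loci tested, most of which were not called, the corresponding shares were 20.1%, 39.3% and 40.7%, against 55.7%, 26.5% and 17.8% for the called loci. Tested loci at 0 in all libraries at 7 and 14 dpci did not move. They were counted as away, or as between where non-injured apexes were at 0 too. No called locus was of this kind. Calling favours large differences, which more easily go past the non-injured mean, so the choice of loci partly fixes this contrast. These shares describe the called loci and were not tested.

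The lower loci were mostly raised at 7 dpci. Against non-injured apexes, 107 of the 187 were higher at 7 dpci in the same limma model and 3 were lower, where 11.9% of all loci tested were called, 6.43% higher and 5.45% lower. At 14 dpci 14 of them were still higher and 66 were lower than in non-injured apexes. Of all loci 12.5% were called there, 5.88% higher and 6.63% lower. The choice of loci lower at 14 than at 7 dpci partly fixes these counts at both time points. The median level of the 187 loci relative to 7 dpci was -1.09 in non-injured apexes, 0.01 at 1.5 dpci, 0.27 at 3 dpci and -1.67 at 14 dpci on the log2 scale, and 121 of them had their lowest mean at 14 dpci, a count that the choice of loci lower at 14 than at 7 dpci partly fixes.

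Of the 66 higher loci, 59 had their highest group mean at 14 dpci and 31 their lowest at 7 dpci, counts that are partly fixed by how the loci were chosen. Against non-injured apexes 29 were higher at 14 dpci and 0 lower, while at 7 dpci 2 were higher and 25 lower, to be read beside the shares of all loci given for the lower loci. The contrasts share their control libraries, and the choice of loci partly fixes these counts too. Their median level relative to 7 dpci was 0.63 in non-injured apexes and 1.57 at 14 dpci on the log2 scale. Of all 253 called loci, 28 differed from non-injured apexes at neither time point.

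**Figure D5:**
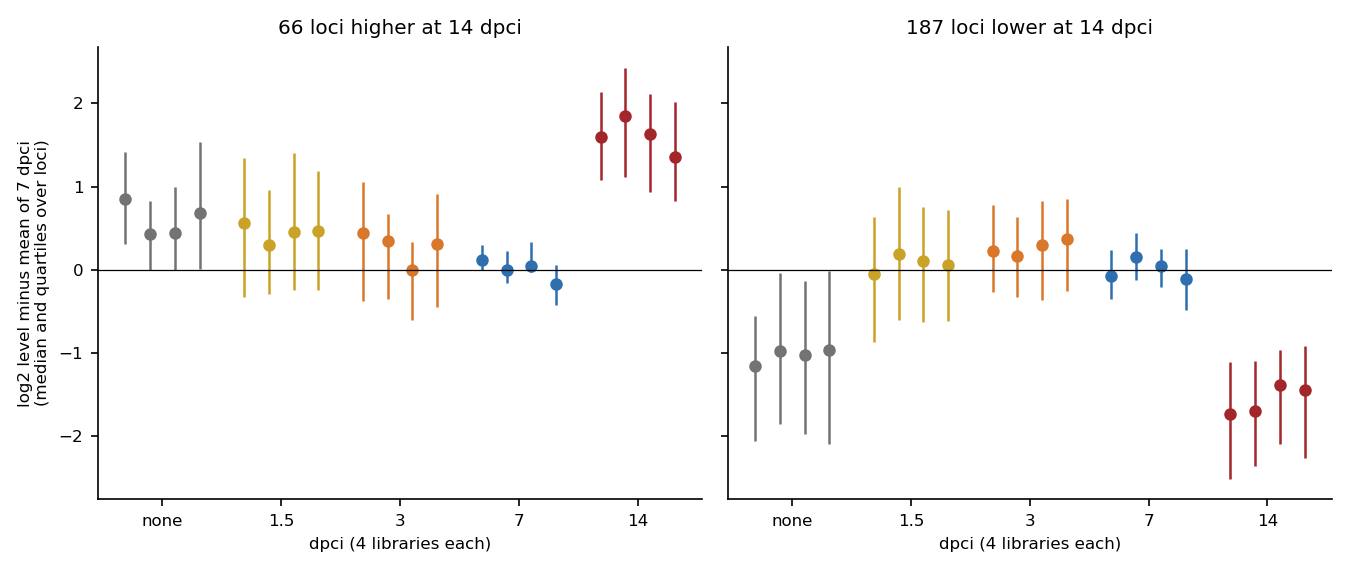
Log2 level of each of the 20 libraries minus the mean of 7 dpci (vertical axis), as the median (point) and quartiles (line) over the 66 loci higher at 14 dpci (left) and the 187 lower (right), with the libraries grouped by time point (horizontal axis). Medians of the lower loci are between -1.16 and -0.96 in non-injured apexes and between -1.73 and -1.38 at 14 dpci; the split between 7 and 14 dpci follows from the choice of loci.

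Large differences at well covered loci often failed the test. Among loci with a mean of at least 100, 511 had a fold of at least 2, of which 77 were called and 434 were not. The largest of these was XLOC_043155, at 0, 0, 0 and 1005 reads in the 7 dpci libraries and 1001, 860.1, 1314 and 2509 at 14 dpci (log2 difference 7.85 ± 2.19, SE, adjusted p = 0.143). A single 7 dpci library reached the range of 14 dpci, and 1 non-injured library was also near 0, at 7.90 reads against up to 3026.

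XLOC_054662 was the next, with 446, 70.1, 102 and 313 reads at 7 dpci and 2.38, 1.01, 0 and 1.02 at 14 dpci. The groups did not overlap, and its adjusted p was 0.0661 in the model of 20 libraries and 0.0108 in the model of 8. Non-injured apexes ranged from 2.22 to 376 and the 3 dpci libraries from 1.77 to 392. XLOC_033894 was at 0 in all libraries at 14 dpci but also in 7 dpci replicates 3 and 4, and at 614 and 324 in replicates 1 and 2. XLOC_016809 reached 1589 in 14 dpci replicate 4 and 2.38 to 50.7 in the other 3.

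Near the threshold the loci looked alike on both sides. Just inside were XLOC_057979, XLOC_056235 and XLOC_045968, with log2 differences of -1.46, 0.73 and -1.69 and adjusted p of 0.0484, 0.049 and 0.049. Just outside were XLOC_017130, XLOC_021410 and XLOC_022457, with 1.70, -1.42 and 0.98 and adjusted p of 0.0501, 0.0502 and 0.0519. XLOC_021410 had 14925, 14407, 13346 and 10624 reads at 7 dpci and 2717, 6204, 6481 and 5460.3 at 14 dpci, so that a well covered locus without overlap stayed just short of a call.

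For most well covered loci a large change could be bounded. Among the 16166 loci with a mean of at least 100 the 95% confidence interval of the log2 difference lay within 1 in either direction for 12747, or 78.9%, and at the median it reached 0.40 to either side. Among loci with a mean of at least 10 the share was 56.0%. For the rest, including most called loci, the interval reached a 2-fold difference or more.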

How the data were processed

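RNA was taken from ventricular apexes, with 4 libraries for each of 5 groups and 3 to 4 apexes per library. The authors had stranded total RNA libraries prepared, sequenced and analyzed by a service provider, with alignment to GRCz10 and Ensembl annotation 90, then Cufflinks, Cuffmerge and Cuffdiff (GRCz10 and Cuffdiff are also in the submitters' processing notes). The aligner and the versions are not given in the sources used here. The deposited values are a signal: the authors divided the reads of each locus by a size factor for its library. Gene names were not used.

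The value of 1 read was found from low values, and after division by it at least 99.96% of the values above 0 were whole to a tolerance of 0.1 in 19 libraries. For 7 dpci replicate 1 the step was 1.00, so a check on low values cannot tell its reads from its values. Contrasts were fitted with limma 3.58.1 in R 4.3.3 (lmFit, eBayes with trend and robust) on log2(value + 1), over the 62594 loci that were above 0 in 1 or more libraries, in 1 model of 20 libraries and 5 groups. Tests were two-sided, with Benjamini-Hochberg adjustment and a threshold of 0.05. This log2(value + 1) scale makes fold changes of low loci too small. Library measures were compared by exact permutation tests (scipy 1.17.1). edgeR 4.0.16 (quasi-likelihood) on recovered reads called 215 loci in 19 libraries, 148 of them among the 253 of limma, and 221 in 20 libraries, 192 of them among the 253. The limma step was tested on simulated data.

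Loci named in the text were, first, the 10 largest called differences in each direction with a mean of at least 100 over the 8 libraries and no overlap. Then came the 5 called loci with the highest mean. Last were the 10 loci with the smallest adjusted p in the model of 8 libraries among those called in both models with a mean of at least 10. Loci in runs, near the threshold, with large differences not called, with the most reads, or next to the last group were added after their values were seen. These rules and the comparison itself were chosen with earlier results of these data known. At 7 and 14 dpci each pair of replicates was further apart than sampling noise (chi-square per degree of freedom of 14.6 to 85.4), so none was counted as a duplicate. Intervals and floors from reads cover counting error only. Alternatives were TMM or quantile scaling, a filter on low values, pseudocounts of 0.1 and 5, other sets of libraries, a block for the replicate number, a minimum fold of 2, eBayes without its options, limma-voom and edgeR.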

Additional observations from a re-analysis of the deposited data

Results flagged for a closer look

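At 14 dpci 1 library stood apart from the other 3 at 2 of the named loci. For XLOC_063446 the gap between 14 dpci replicate 1 and the nearest library was 0.905 of the group's whole range on the log2 scale, with 275 normalised reads against 127 to 136. For XLOC_039099 the gap was 0.874, with 44.1 reads in the same replicate against 121 to 139. Both are past Dixon's critical value for 4 samples. Of 78 groups of 4 values examined 2 were past it, where chance gives about 1 in 20, or 3.9. Without 14 dpci replicate 1 both loci kept their call, while their direction could not change because the time points did not overlap.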

How the results depend on the processing

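The count of 66 higher and 187 lower loci moved with the libraries in the model, the filter and the weighting. It was 3 higher and 20 lower with the 8 libraries of 7 and 14 dpci only, 105 and 255 with the 16 injured libraries, and 131 and 281 with a value of at least 10 in at least 4 libraries. Without the trend and robust options it was 38 and 93. Leaving out 1 library gave 22 to 114 higher and 57 to 224 lower loci. Chosen after seeing the data, edgeR on the 8 libraries gave 3 and 18, the 10 libraries on 1 side of the first component gave 1 and 15, leaving out 7 dpci replicate 4 with 14 dpci replicate 1 gave 185 and 315, and quality weights per library gave 356 and 612. Fewer residual degrees of freedom accompany the lower counts with 8 and 10 libraries. Neither for these counts nor for the other moves was the cause tested. Also chosen after seeing the data were edgeR on 20 libraries, scaling to equal sums and taking the non-injured level from a pair of replicates. Under the remaining alternatives both counts stayed within 1.5 times, and all 26 alternatives kept the direction of the 30 named loci. The named loci did not overlap between the time points, so leaving out libraries could not have reversed them. 8 of the 253 loci were called in every alternative, 5 of them named above (XLOC_006361, XLOC_041205, XLOC_004392, XLOC_005189 and XLOC_007436).

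With the replicate number as a replicate block, 79 loci were higher and 197 lower. Libraries with the same number had deviations correlated at 0.084, -0.019, -0.064 and 0.271, and not every library correlated best with its own number, so the numbers were not taken as pairs. The first component difference of 33.5 was 30.7 to 35.9 with 1 library left out, where 4 against 3 allows no p under 0.0571. The share of called loci nearer to the non-injured level ranged from 52.2% to 59.3%. With 4 pools per time point and 23541028 to 27949675 reads per library, differences at low loci had the widest errors.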
